A study of Mus musculus with 2 samples.

Results

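Kinesins are motor proteins that use ATP to move along microtubules or to change their length. The genes described here are the rows of the deposited RNA sequencing table whose symbol is Kif or Kifc followed by a number. The rule matched 42 of 22156 genes. Of these, 41 encode kinesin motors, and the other, Kif1bp, encodes a protein that binds kinesins and is not a motor itself. Mitotic kinesins build the spindle, move chromosomes and divide the cytoplasm, and most cells make them mainly while they divide. Transport kinesins carry vesicles, mitochondria, endosomes and ciliary cargo in dividing and resting cells alike. By these textbook roles the motors were placed as 12 mitotic, 15 transport and 14 other kinesins.

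The study sequenced primary chondrocytes, the matrix-producing cells of cartilage, from control and *Myl3*-KO mice, with 1 library per genotype. *Myl3*-KO mice were Col2a1-Cre; Myl3 flox/flox, in which the recombinase is driven by a collagen II promoter that is active in chondrocytes. Controls were Myl3 flox/flox littermates without Cre by the study's methods and WT by the labels, so the floxed allele may be common to both genotypes. The study's mice had a C57BL/6J background. The cells came from rib cartilage by the labels, and from rib and articular cartilage of newborn mice by the study's methods, were grown as a monolayer in DMEM/F12 with FBS, and received no treatment. Neither the number of mice behind a library nor their sex is given in the sources used here.

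The libraries held 17612435 estimated reads for control cells and 13477977 for *Myl3*-KO cells. Levels are given as counts scaled to the library total (CPM) when libraries are compared, and as the deposited FPKM, which also divides by gene length, when genes are compared. A floor of 3 counts corresponded to 0.170 CPM in control cells and 0.223 CPM in *Myl3*-KO cells. *Myl3*, the targeted gene, had 0 counts in both libraries, so these reads do not check the genotype labels. The chondrocyte marker list was low, with 7 of 17 genes reaching 10 counts and a summed level of 76.4 CPM in control cells and 77.8 CPM in *Myl3*-KO cells. The defining cartilage genes Acan, Matn1, Matn3, Hapln1 and Cnmd were at 0 in both libraries, and Col2a1 had 30 and 27 counts. The members of that list with the most counts were Sox9 with 866 and 480, Col11a2 with 293 and 395 and Col11a1 with 121 and 99. The fibroblast list summed to 18634 CPM in control cells and 21972 CPM in *Myl3*-KO cells. Its largest member was Col1a2, with 211652 and 189213 counts, while Thy1 had 0 in both libraries and Fap had 1 and 0. The labelled cell type was therefore only weakly marked in either library.

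Of the 41 motors, 31 reached 10 counts over both libraries and were tested among 12431 genes. They were all 12 mitotic kinesins, 13 of 15 transport kinesins and 6 of 14 other kinesins. Each gene's counts were divided by the library totals, and the log2 of the *Myl3*-KO level over the control level is given with a 95% Clopper-Pearson interval. Intervals and the two-sided exact binomial test cover counting error only, and they compare the 2 libraries, not the genotypes. A gene was past the fold limit when its log2 ratio was at least 0.5 in size and its interval left out 0. By this rule 3 of 31 motors were higher in *Myl3*-KO, against 4.68% of all genes tested, and 0 were lower, against 1.62%. With 1 as the limit, 0 motors were past it in either direction, against 1.38% of all genes higher and 0.499% lower. By the Benjamini-Hochberg adjusted p of the exact binomial test alone, with 0.05 as threshold, 6 of 31 motors were higher and 10 were lower, against 18.6% and 16.8% of all genes tested.

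**Figure D1:**
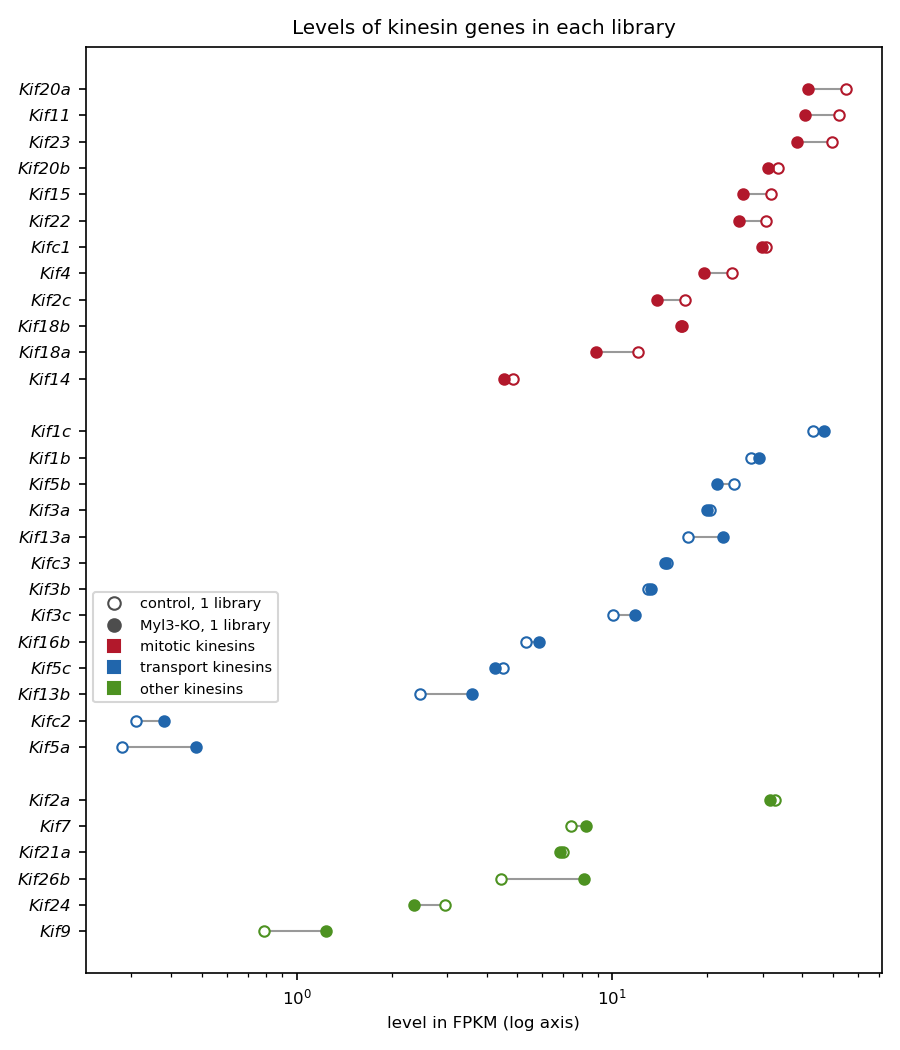
Deposited FPKM of each kinesin with at least 10 counts, on a log axis, with 1 point for the control library and 1 for the *Myl3*-KO library and the genes grouped by role. Mitotic kinesins lay between 4.85 and 55.0 FPKM in the control, and transport and other kinesins reached further down, to 0.28 FPKM.

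The mitotic kinesins were the more abundant motors in these cells, and all 12 had a log2 ratio below 0. Their FPKM in the control ran from 4.85 for Kif14 to 55.0 for Kif20a, with a median of 30.7, and the median in *Myl3*-KO was 25.6. Their summed level was 1268 CPM in control cells and 1040 CPM in *Myl3*-KO cells, a change of -18.0%, with a log2 ratio of -0.29 (interval -0.32 to -0.26). The median log2 ratio of the 12 genes was -0.29, where the median of all genes tested was 0.02 and their middle range, from the 25th to the 75th percentile, was -0.15 to 0.20. Of all genes tested, 47.3% had a log2 ratio below 0. By adjusted p of the exact binomial test 9 of 12 mitotic kinesins were lower, against 16.8% of all genes, and 0 were past the fold limit. That share includes genes of as few as 10 counts over both libraries. The mitotic kinesins had 714 to 4447 counts in the control, and at higher counts smaller ratios pass the test. All 12 stayed below 0 under TMM factors, DESeq2 size factors, upper quartile factors, the FPKM ratio and a correction for GC content and length. In that order, the factors moved every log2 ratio by -0.027, -0.024 and -0.0005. They could therefore not have raised any of the 12 above 0, while the FPKM ratio and the correction could. The 12 genes lie on 10 chromosomes, and their median GC content in mature transcripts was 47.3%, against 51.6% for the transport kinesins tested. In bulk RNA, fewer cells in division and less of each transcript per dividing cell cannot be told apart. With an assumed coefficient of variation of 0.1 between replicates, 0 of the 12 reached an unadjusted p of 0.05 in edgeR's exact test.

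**Figure D2:**
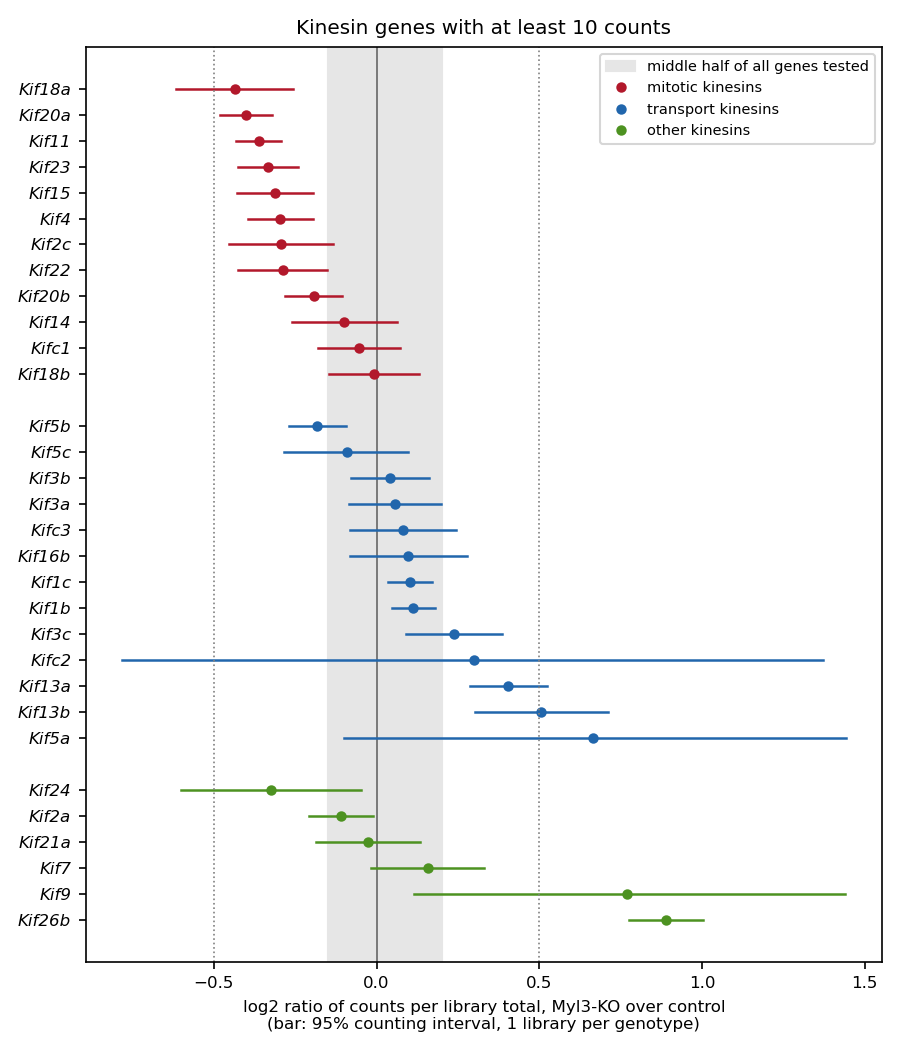
Log2 ratio of counts per library total, *Myl3*-KO over control, for each kinesin tested, with bars for the 95% counting interval, dotted lines at the limit of 0.5 and a grey band over the range from the 25th to the 75th percentile of all genes tested. The 12 mitotic kinesins sat between -0.44 and -0.01, and the transport kinesins between -0.18 and 0.67.

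Among the motors that set up the spindle, Kif11, the tetrameric motor that pushes spindle poles apart, had 252 CPM in control cells and 196 CPM in *Myl3*-KO cells. Its log2 ratio was -0.36 (interval -0.43 to -0.29). Kif15, which helps keep the spindle bipolar, had 90.4 and 72.9 CPM, a log2 ratio of -0.31 (interval -0.43 to -0.20). Both intervals of this pair lay below 0. Kifc1, a motor that walks toward microtubule minus ends and focuses spindle poles, had 68.6 and 66.2 CPM, and its interval held 0 (log2 ratio -0.05, interval -0.18 to 0.07). Kifc1 shares 53.2% of its 31-base words with the gene Kifc5b, so reads could be split between the pair. Counts of the pair together were 1622 in control cells and 1168 in *Myl3*-KO cells, with a log2 ratio of -0.09 (interval -0.20 to 0.02).

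Among the motors of chromosomes and microtubule ends, Kif18a, which dampens plus ends to align chromosomes, stood lowest of all 31 motors. The gene lies on chromosome 2 from 109280738 to 109341747 in the GRCm38 build. It had 714 counts (40.5 CPM) in control cells and 404 counts (29.97 CPM) in *Myl3*-KO cells, with a log2 ratio of -0.44 (interval -0.62 to -0.26), and 4.94% of all genes tested had a lower one. Its relative Kif18b, which acts on astral microtubules, had 975 counts (55.4 CPM) and 742 counts (55.1 CPM), a log2 ratio of -0.01 (interval -0.15 to 0.13). This pair held the highest and the lowest log2 ratio of the mitotic group. The count ratio of Kif18a to Kif18b within a library was 0.732 in control cells and 0.544 in *Myl3*-KO cells, a log2 difference of -0.43 (interval -0.66 to -0.20). The chromokinesins Kif4 and Kif22, which bind chromosome arms, lay together, with log2 ratios of -0.30 (interval -0.40 to -0.19) and -0.29 (interval -0.42 to -0.15). Kif4 had 120 and 97.4 CPM, and Kif22 had 64.6 and 52.9 CPM. Kif2c, which removes tubulin from microtubule ends at centromeres, had 48.3 and 39.4 CPM, a log2 ratio of -0.29 (interval -0.45 to -0.13).

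The motors of the midzone and of cytokinesis differed among themselves. Kif20a, which brings the chromosomal passenger complex to the central spindle, had 196 CPM in control cells and 148 CPM in *Myl3*-KO cells, with a log2 ratio of -0.40 (interval -0.48 to -0.32). Kif23, the motor of the centralspindlin complex, had 143 and 114 CPM, a log2 ratio of -0.33 (interval -0.43 to -0.24). Kif20b, which acts late in cytokinesis, had 145 and 127 CPM, a log2 ratio of -0.19 (interval -0.28 to -0.10). Kif20b was the nearest to 0 of these relatives, and the ratio of Kif20a to Kif20b within a library went from 1.35 in the control to 1.17 in *Myl3*-KO, a log2 difference of -0.21 (interval -0.33 to -0.09). The ratio of Kif20a to Kif23 was 1.37 and 1.30, and that interval held 0 (log2 difference -0.07, interval -0.19 to 0.06). Kif14, which works with citron kinase in cytokinesis, had 43.4 and 40.5 CPM, and its interval held 0 (log2 ratio -0.10, interval -0.26 to 0.06). Kif20a spans 2327 bases in common with the gene Cdc23 on the other strand, Kif4 spans 832 with Pdzd11, and whether counting used strand is not given in the sources used here. Without members that overlap or share sequence with another counted gene, the median of the mitotic kinesins was -0.29.

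The start sites of the mitotic kinesins are shown because they share short elements that the grouping did not use. Promoter windows of 300 bases, from 250 before to 50 after the annotated start, came from RefSeq on GRCm38.p6, and 32 of 41 motors had one. The windows were searched on both strands for TTTGAA, which is a form of the cell cycle element known as CHR, and for CCAAT, the box bound by NF-Y. The stretches below run from 100 bases before the start to 30 after it, 5′ to 3′ along the gene. Capitals mark matches, written TTTGAA or TTCAAA for the first element and CCAAT or ATTGG for the second.
Kif11 (chr19:37376282-37376411, plus strand): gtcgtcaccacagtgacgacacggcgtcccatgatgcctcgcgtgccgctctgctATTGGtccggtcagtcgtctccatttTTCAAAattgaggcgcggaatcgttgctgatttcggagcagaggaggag
Kif22 (chr7:127042391-127042520, minus strand): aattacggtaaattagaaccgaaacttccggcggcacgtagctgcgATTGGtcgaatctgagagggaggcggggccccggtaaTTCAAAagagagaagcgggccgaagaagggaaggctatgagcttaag
Kif23 (chr9:61946770-61946899, minus strand): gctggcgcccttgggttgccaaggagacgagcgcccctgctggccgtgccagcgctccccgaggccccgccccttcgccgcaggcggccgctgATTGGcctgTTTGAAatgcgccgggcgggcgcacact
Kif4 (chrX:100625965-100626094, plus strand): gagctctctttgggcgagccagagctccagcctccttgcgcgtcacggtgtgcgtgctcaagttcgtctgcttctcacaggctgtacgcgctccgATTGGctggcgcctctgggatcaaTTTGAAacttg
Kifc1 (chr17:33890604-33890733, minus strand): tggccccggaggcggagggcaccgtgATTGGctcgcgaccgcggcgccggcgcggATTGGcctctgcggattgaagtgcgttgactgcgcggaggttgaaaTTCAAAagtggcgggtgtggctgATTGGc
Kif18b (chr11:102925095-102925224, minus strand): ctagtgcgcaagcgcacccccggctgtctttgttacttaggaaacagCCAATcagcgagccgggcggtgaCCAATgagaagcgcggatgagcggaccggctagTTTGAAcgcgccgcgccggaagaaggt
Kif20b (chr19:34922258-34922387, plus strand): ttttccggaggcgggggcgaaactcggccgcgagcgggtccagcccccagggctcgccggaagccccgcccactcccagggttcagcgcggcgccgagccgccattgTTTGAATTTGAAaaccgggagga
In this set Kif11, Kif22, Kif23, Kif4, Kifc1 and Kif18b hold both elements within the stretch, and Kif20b holds TTTGAA alone, in tandem copies. The next stretches are those of the lowest mitotic motor, of the highest motor of any group and of 2 transport kinesins.
Kif18a (chr2:109280638-109280767, plus strand): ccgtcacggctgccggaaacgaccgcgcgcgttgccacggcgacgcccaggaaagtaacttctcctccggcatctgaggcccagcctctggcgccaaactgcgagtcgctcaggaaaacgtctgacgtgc
Kif26b (chr1:178529025-178529154, plus strand): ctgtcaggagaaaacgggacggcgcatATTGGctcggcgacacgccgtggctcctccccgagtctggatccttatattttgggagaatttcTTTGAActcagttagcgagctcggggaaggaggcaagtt
Kif13a (chr13:46929689-46929818, minus strand): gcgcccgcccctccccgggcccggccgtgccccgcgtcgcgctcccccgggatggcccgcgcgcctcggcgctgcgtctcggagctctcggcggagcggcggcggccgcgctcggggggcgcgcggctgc
Kif1c (chr11:70700448-70700577, plus strand): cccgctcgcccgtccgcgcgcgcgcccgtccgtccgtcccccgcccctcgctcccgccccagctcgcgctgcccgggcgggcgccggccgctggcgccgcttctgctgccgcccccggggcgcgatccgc
Kif18a, Kif13a and Kif1c hold neither element here, while Kif26b, a motor outside the mitotic group, holds both. Not every member is printed. Of the tested transport kinesins left out, Kif3a has CCAAT beginning at -18 and Kif3b at -69 from the start. Kif1b has it at -118 and -87 in one window and at -153 and -122 in another. Of the mitotic kinesins left out, TTTGAA begins at -228 in Kif14, at -103 in Kif2c and nearest at -19 in Kif15. A match is a description of the letters and not evidence of binding.

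Over the whole window, TTTGAA was found in 10 of 11 mitotic kinesins (90.9%), in 0 of 8 transport kinesins tested and in 1 of 6 other kinesins tested, which was Kif26b. The share was 17.9% of all 32851 promoter windows and 14.3% of the 9430 tested genes with a window. CCAAT was found in 7 of 11 mitotic kinesins (63.6%) and 3 of 8 transport kinesins tested (37.5%), against 37.4% of all windows and 43.7% of the tested genes with a window. Both elements stood in 7 of 11 mitotic kinesins and in 0 of 8 transport kinesins tested. The share was 6.95% of all windows and 6.002% of the tested genes with one. The windows of Kif14, Kif2c and Kif4 lie inside the span that GENCODE gives each gene. The window of Kif14 begins at 136467598 and the gene at 136466343, and that of Kif4 at 100625815 and 100625737. On the minus strand, the window of Kif2c ends at 117179022 and the gene at 117182639. These genes count among the 10 with TTTGAA, and Kif14 and Kif4 among the 7 with both. Whether these windows hold the starts used in these cells was not tested. TTTGAA began within 30 bases of the start in 8 of 11 mitotic kinesins and in 2.49% of tested genes, a distance chosen after the positions were seen. Among the spindle and midzone partners described below, 11 of 15 with a window held TTTGAA. Kif18a, the lowest, held neither spelling, and Kifc1 and Kif18b, whose intervals held 0, held both. Kif20a had no window, and other forms of the elements were not searched. Whether the elements go with the ratios was not tested.

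**Figure D3:**
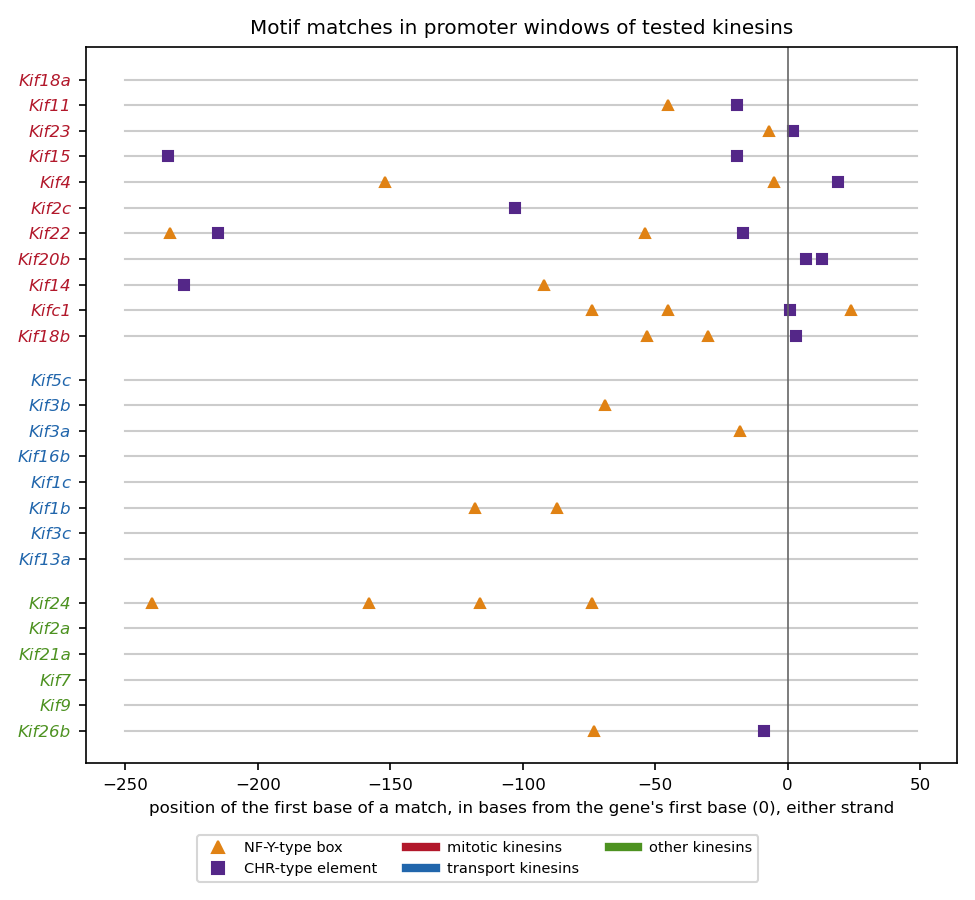
Position of each match in the promoter windows of the kinesins tested, in bases from the annotated start, with triangles for the NF-Y-type box and squares for the CHR-type element, one line per gene, ordered by log2 ratio within each role. Squares stand on 10 of 11 mitotic lines, on 0 of 8 transport lines and on 1 of 6 other lines.

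The transport kinesins together were slightly higher in *Myl3*-KO. Their summed level was 962 CPM in control cells and 1027 CPM in *Myl3*-KO cells, with a log2 ratio of 0.09 (interval 0.06 to 0.13). The median log2 ratio of the 13 tested was 0.10, with 11 above 0 and 2 below, where 52.7% of all genes tested were above 0. The number above 0 was also 11 under TMM, DESeq2 and upper quartile factors, but 9 by the FPKM ratio and 7 after the correction for GC content and length. By adjusted p of the exact binomial test 5 of 13 were higher and 1 was lower, against 18.6% and 16.8% of all genes, and only Kif13b was past the fold limit, against 4.68% of all genes. In the control their median was 12.9 FPKM, and Kif1c was the most abundant of them at 43.3 FPKM.

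The relatives Kif13a and Kif13b stood highest among the well-counted transport kinesins. Kif13a, which carries cargo to recycling endosomes, had 65.4 CPM in control cells and 86.6 CPM in *Myl3*-KO cells, with a log2 ratio of 0.40 (interval 0.29 to 0.52). Kif13b, a vesicle motor on chromosome 14 from 64647265 to 64809617, had 382 counts (21.7 CPM) and 415 counts (30.8 CPM), a log2 ratio of 0.51 (interval 0.30 to 0.71). Kif13b was past the fold limit by a small margin and fell short of it under TMM factors, at 0.48. The ratio of Kif13a to Kif13b within a library was 3.02 in control cells and 2.81 in *Myl3*-KO cells, a difference whose interval held 0 (log2 difference -0.10, interval -0.34 to 0.14). Kif16b, a motor of early endosomes, had 32.3 and 34.6 CPM, and its interval held 0 (log2 ratio 0.10, interval -0.08 to 0.28).

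The vesicle and mitochondrial motors Kif1b and Kif1c were abundant and nearly level between the libraries. Kif1b had 224 and 243 CPM, a log2 ratio of 0.11 (interval 0.05 to 0.18), and Kif1c had 227 and 244 CPM, a log2 ratio of 0.10 (interval 0.04 to 0.17). At these counts even ratios this small had intervals that left out 0. The ratio of Kif1b to Kif1c within a library was 0.987 in control cells and 0.994 in *Myl3*-KO cells. Kif13a and Kif13b stood above both, with log2 differences to Kif1b of 0.29 (interval 0.15 to 0.43) and 0.39 (interval 0.18 to 0.61). The mitotic Kif14 belongs to the same kinesin-3 family as these transport motors, and the ratio of Kif13b to Kif14 within a library went from 0.5 to 0.760. That log2 difference was 0.60 (interval 0.34 to 0.87), while the interval of Kif14 against Kif16b held 0 (log2 difference -0.20, interval -0.44 to 0.05).

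Conventional kinesin, which carries much of the cargo that moves outward along microtubules, had 1 lower member, Kif5b, and others whose intervals held 0. Kif5b, the widely expressed heavy chain, had 147 CPM in control cells and 129 CPM in *Myl3*-KO cells, with a log2 ratio of -0.18 (interval -0.27 to -0.09). It was the only transport kinesin lower by adjusted p. Kif5c had 31 and 29.1 CPM, and its interval held 0 (log2 ratio -0.09, interval -0.28 to 0.10). Kif5a, best known from neurons, had 28 counts in control cells and 34 in *Myl3*-KO cells, and its interval held 0 (log2 ratio 0.67, interval -0.10 to 1.44). Within a library the ratio of Kif5a to Kif5b was 0.0108 and 0.0195, a log2 difference of 0.85 whose wide interval left out 0 (0.08 to 1.63). The ratio of Kif5b to Kif5c was 4.73 and 4.45, a difference whose interval held 0.

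Of the kinesin-2 motors, which drive transport in the cilium, Kif3a and Kif3b lay close to 0 and Kif3c was higher. Kif3a had 52.7 CPM in control cells and 54.9 CPM in *Myl3*-KO cells, and Kif3b, its partner in the heterotrimeric motor, had 72.9 and 75.01 CPM. The log2 ratio was 0.06 (interval -0.08 to 0.20) for Kif3a and 0.04 (interval -0.08 to 0.16) for Kif3b, and both intervals held 0. The sign of Kif3a turned with the FPKM ratio, to -0.022. Kif3c, which can pair with Kif3a in place of Kif3b, had 45.5 and 53.6 CPM, a log2 ratio of 0.24 (interval 0.09 to 0.39). The ratio of Kif3b to Kif3c went from 1.603 to 1.40, a log2 difference of -0.20 (interval -0.39 to -0.01). Kifap3, the non-motor subunit of this complex, had 1492 counts in control cells and 1088 in *Myl3*-KO cells, and its interval held 0 (log2 ratio -0.07, interval -0.18 to 0.04). Of the minus-end transport motors, Kifc3 had 39.8 and 42.0 CPM and Kifc2 had 17 and 16 counts, and both intervals held 0. The FPKM ratio turned the sign of Kifc3 to -0.027.

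Comparing the groups inside each library removes the scaling between libraries. Mitotic kinesins took 1.32 counts for each transport kinesin count in control cells and 1.01 in *Myl3*-KO cells. The log2 difference was -0.38 (interval -0.42 to -0.33). Without the member of most control counts in each group, Kif11 and Kif1c, it was -0.36 (interval -0.41 to -0.31). Without members that overlap or share sequence with another counted gene, the log2 difference was -0.37 (interval -0.42 to -0.32). The mitotic counts were lower relative to the transport counts by more than counting error in each of these sets. Against the other kinesins the mitotic ratio was 4.72 in control cells and 3.32 in *Myl3*-KO cells.

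The other kinesins held the motor with the highest ratio of all, Kif26b, a gene of 410 kb on chromosome 1 from 178529125 to 178939200. Kif26b, an atypical kinesin that binds microtubules without using ATP and acts in cell adhesion and Wnt signaling, had 1061 counts in control cells and 1504 in *Myl3*-KO cells. Its level was 60.2 and 112 CPM, a log2 ratio of 0.89 (interval 0.78 to 1.004), with an adjusted p of 5.52e-52 by the exact binomial test, and 97.2% of all genes tested had a lower ratio. It was the only motor to reach an unadjusted p of 0.05 at an assumed coefficient of variation of 0.2, with p = 0.033 in edgeR's exact test, and it did not reach it at 0.4. Kif9, a motor of the sperm tail and motile cilia, had 36 counts and 47 counts, a log2 ratio of 0.77 (interval 0.11 to 1.44). Kif9 was past the fold limit but missed the adjusted threshold, with an adjusted p of 0.054 by the exact binomial test.

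The remaining other kinesins had intervals that crossed 0 or came close to it. Kif2a, a relative of Kif2c that shortens microtubules in resting cells as well as in division, had 113 and 105 CPM, a log2 ratio of -0.11 (interval -0.21 to -0.01) that missed the adjusted threshold. It spans 1229 bases in common with Dimt1 on the other strand, which had 987 and 547 counts. Kif24, a centriolar relative that restrains cilium formation in cycling cells, had 291 and 178 counts, a log2 ratio of -0.32 (interval -0.60 to -0.05), with an adjusted p of 0.055 by the exact binomial test. Both intervals left out 0 while neither adjusted p passed. Kif7, the Hedgehog pathway motor at the cilium tip, had 33.7 and 37.5 CPM, and Kif21a, which stabilises microtubules at the cell cortex, had 43.2 and 42.4 CPM. The intervals of both held 0, at -0.02 to 0.33 and -0.18 to 0.13. Kif1bp, which binds kinesins and blocks some of them from microtubules, had 84.7 and 77.4 CPM, a log2 ratio of -0.13 (interval -0.25 to -0.02) with an adjusted p of 0.069 by the exact binomial test.

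The relatives within a family were compared by their count ratio inside each library, in 34 pairs of the same kinesin family. The interval left out 0 in 17 of them, with no adjustment over the pairs, and pairs that share a gene are not independent. Of the kinesin-4 motors, Kif4 was lower relative to Kif7, the ratio going from 3.55 to 2.59 with a log2 difference of -0.45 (interval -0.65 to -0.25). Kif2a and Kif2c gave 2.34 and 2.66, a difference whose interval held 0 (log2 difference 0.18, interval -0.00 to 0.37).

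The 10 motors left did not reach 10 counts and carry no ratio. Kif1a, Kif26a, Kif6, Kif12, Kif2b and Kif28 had 0 counts in both libraries, which allows up to 0.170 CPM in control cells and 0.223 CPM in *Myl3*-KO cells. Kif17 had 2 counts in each library, Kif21b and Kif27 had 1 in each, and Kif19a had 0 in control cells and 4 in *Myl3*-KO cells. Kif1a, a motor of synaptic vesicle precursors, and Kif17, a dendritic motor, are neuronal in the main, and the neuron and glia list summed to 45.9 and 44.9 CPM, with 5 of 10 genes at 0 in both libraries.

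The genes that work beside the mitotic motors were lower as well. Of 18 spindle and midzone partners, 14 were lower and 1 was higher by adjusted p of the exact binomial test, against 16.8% and 18.6% of all genes, with a median log2 ratio of -0.24. Hmmr, a spindle assembly factor, was the only one past the fold limit, against 1.62% of all genes, with 1740 counts in control cells and 916 in *Myl3*-KO cells (log2 ratio -0.54, interval -0.66 to -0.42). Numa1, which anchors dynein at spindle poles, stood highest at 0.28. Cenpe, a kinetochore kinesin whose symbol the rule does not match, had 2638 and 1834 counts, a log2 ratio of -0.14 (interval -0.23 to -0.05). The cell cycle list was lower too. Of its 19 genes all were below 0 and 15 were lower by adjusted p, against 16.8% of all genes, and 2 were past the fold limit, against 1.62%, with a median of -0.24. For both lists the shares by adjusted p include genes of few counts, where the same ratio passes less often. Cdk1, the mitotic kinase, had 4417 counts in control cells and 2360 in *Myl3*-KO cells (log2 ratio -0.52), and Ccne2, a cyclin of S phase entry, had 2146 and 1101 (log2 ratio -0.58). Mki67, the proliferation antigen, stood highest at -0.02, with an interval of -0.07 to 0.03. The summed level of the list was 4792 CPM in control cells and 4069 CPM in *Myl3*-KO cells. Its part in the lower mitotic kinesins was not tested.

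**Figure D4:**
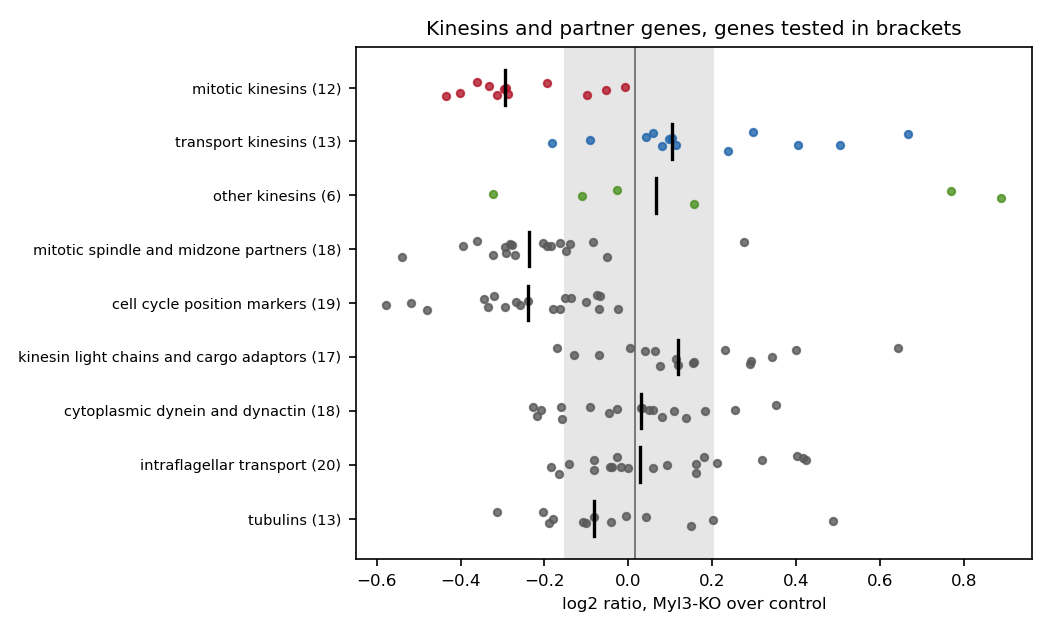
Log2 ratio, *Myl3*-KO over control, of each tested gene in the kinesin groups and the partner lists, with a bar at each median. The medians of the mitotic kinesins, the spindle and midzone partners and the cell cycle list were -0.29, -0.24 and -0.24, and those of transport kinesins and of light chains and adaptors were 0.10 and 0.12.

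Of 17 kinesin light chains and cargo adaptors, which link transport motors to cargo, 14 had a log2 ratio above 0 and 3 below, with a median of 0.12. Among the 14, Trak2, named after its value was seen, lay at 0.0049, less than the shift of -0.03 that TMM factors bring. By adjusted p of the exact binomial test 6 were higher and 1 was lower, against 18.6% and 16.8% of all genes. Klc4, a light chain of conventional kinesin, was the only one past the fold limit, against 4.68% of all genes, with 164 counts in control cells and 196 in *Myl3*-KO cells (log2 ratio 0.64, interval 0.34 to 0.95). The light chains Klc1 and Klc2 had 1393 and 610 counts in control cells and 1123 and 480 in *Myl3*-KO cells, and their intervals held 0, while Klc3 had 0 in both libraries. Rhot1, the mitochondrial adaptor, stood lowest at -0.17. By the same adjusted p, and against the same shares of all genes, the other lists of microtubule transport were as follows. Of 18 dynein and dynactin genes, the motor of the opposite direction, 5 were lower and 4 higher, from -0.23 for Dctn3 to 0.35 for Dync1h1. Of 20 intraflagellar transport genes, whose products kinesin-2 carries, 1 was lower and 6 were higher, from -0.18 for Ift88 to 0.42 for Ift27. Of 13 tubulin genes, 3 were lower and 2 higher, from -0.31 for Tube1 to 0.49 for Tubg2. None of these last 3 lists had a member past the fold limit, against 4.68% of all genes higher and 1.62% lower.

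The markers of other cell types were set beside these groups. Of 8 fibroblast genes tested, 2 were past the fold limit and lower, against 1.62% of all genes, Dcn with 631 and 155 counts and Lum with 272 and 81 counts. Past it and higher was 1, against 4.68% of all genes, Pdgfra with 120 and 140 counts. By adjusted p of the exact binomial test 4 of the 8 were higher and 3 were lower, the higher ones including Vim at a log2 ratio of 0.49, Col1a2 at 0.22 and Col1a1 at 0.15. In the chondrocyte list 1 of 7 genes tested was past the limit, Col11a2, against 4.68% of all genes, with 293 counts in control cells and 395 in *Myl3*-KO cells, and Sox9 had 866 and 480. Immune genes summed to 2.22 and 2.45 CPM and endothelial genes to 1.65 and 3.04 CPM, and no gene of either list was past the limit. Muscle genes summed to 0.625 and 0.223 CPM and erythroid genes to 0 and 0.0742 CPM, with no gene of 10 counts. The part of cell composition in the kinesin ratios was not tested.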

How the data were processed

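RNA from 1 control and 1 *Myl3*-KO culture of primary mouse chondrocytes was sequenced from SMARTer mRNA libraries. The authors deposited expected counts, estimated reads per gene without normalization, and FPKM values, which also scale for gene length and library. The submitters' processing notes name the build GRCm38, or mm10, and the aligner, counter and strand setting are not given in the sources used here. The control column is headed NC and was read as the control because the other is headed KO. Totals were 17612435 and 13477977 counts, and depth limits precision for genes of few counts.

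For the exact binomial test (two-sided) and 95% Clopper-Pearson intervals the expected counts were rounded. The test took in 12431 genes whose counts over both libraries reached 10, with Benjamini-Hochberg adjustment over all of them. Quasi-likelihood and DESeq2 tests could not be fitted, since 1 library per genotype leaves no residual degrees of freedom. TMM, upper quartile (edgeR 4.0.16) and DESeq2 (1.42.0) factors, an assumed coefficient of variation in edgeR's exact test, other limits and filters, FPKM ratios and a correction by 100 bins of GC content and length were tried as alternatives. The correction and the removal of overlapping members were chosen after seeing the data. Scripts ran in Python 3.11.15 (numpy 2.4.6, pandas 2.3.3, scipy 1.17.1, matplotlib 3.10.9) and R 4.3.3. The count test was tested on simulated data that held counting error alone and no variation between cultures. Overlaps and GC content came from GENCODE annotation, and promoter windows from RefSeq on GRCm38.p6.

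Genes named are all rows matching the symbol rule, Cenpe, Kifap3, Kifbp under its symbol Kif1bp, the light chains, *Myl3*, the markers by list, and in each partner list the members past the fold limit and the highest and lowest. Some genes that overlap or share sequence with a kinesin are named for that. Some items that these rules cover are not reported here. Members and lists were chosen with earlier results of these data known.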

Additional observations from a re-analysis of the deposited data

How the results depend on the processing

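With 1 library per genotype no replicate could be left out, and a difference between libraries cannot be told apart from one between cultures. No paired analysis was possible because each genotype had a single library. Of the alternatives for group results, 70 were labelled the same and 18 moved. The label allowed small changes in a count or a median, so the same does not mean identical. The count of transport kinesins past the fold limit, 1 in the report, was 0 under TMM factors, 0 under DESeq2 size factors, 0 with a limit of 1, 2 by the FPKM ratio, and 0 at an assumed coefficient of variation of 0.2 or 0.4. The count of other kinesins, 2 in the report, was 0 with a limit of 1, 1 at a coefficient of variation of 0.1 or 0.2 and 0 at 0.4. By adjusted p alone, in the exact binomial test, the counts were 9 mitotic, 6 transport and 1 other. Over all motors, 3 in the report, the count was 1 at a coefficient of variation of 0.2 and 0 at 0.4. It was 2 under TMM factors, under DESeq2 size factors and at a coefficient of variation of 0.1, and 4 by the FPKM ratio. Over the partner lists, 4 in the report, the count was 0 with a limit of 1 and 5 under TMM factors. The median of the transport kinesins was 0.066 after the correction for GC content and length. That of the other kinesins was 0.39 with no filter on low counts, which adds genes of few counts. This 0.39 is not a measured difference. The floor of 3 counts gives it, from the library totals alone, to every gene with at most 3 counts in each library. The FPKM ratio turned the sign of Kif3a to -0.022 and of Kifc3 to -0.027, and the cause was not tested. TMM factors moved all log2 ratios by -0.03. Of the alternatives for single genes, 161 gave the same result and 2 turned the sign, as above. The FPKM ratio carries no counting interval here, so for it only a turned sign could count as a change. The other 54, all with an assumed coefficient of variation, missed an unadjusted p of 0.05 where the counting interval had left out 0. At an assumed coefficient of variation of 0.1, 828 of 12431 genes reached an unadjusted p of 0.05 in edgeR's exact test, 175 at 0.2 and 25 at 0.4.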
